A study of Mus musculus with 6 samples.

Results

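Replication-dependent histone genes were followed in differentiating C2C12 cells (mouse myoblasts, an established line whose cells fuse into myotubes once serum is lowered) after transfection of an siRNA against the noncoding RNA H19. The members were the rows of the deposited array table, each 1 probe set, whose annotated symbols all belong to the replication-dependent histone genes, which gave 43 of 35556 rows. Of these, 26 rows carried 1 gene symbol and 17 carried several, and together they named 43 histone genes. By class they held 4 rows of linker histone H1, 4 of H2A, 9 of H2B, 13 of H3, 12 of H4 and 1 row shared by H2bc6 and H1f4. The rule used names only, and no measured value, but it was chosen with earlier results of these data known. A further 9 rows that list other symbols beside member symbols were kept apart. They comprised 7 H2B rows that also list H4bc24, an H2B copy by its older name, and 2 H2A rows that also list H2ax, a pseudogene and other genes, and 19 member-type symbols occurred only there.

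The study had 6 arrays of total RNA from wild type C2C12 cells, 3 after control siRNA (siCon) and 3 after H19 siRNA (simH19). All cells had been moved from growth medium with 10% fetal bovine serum to differentiation medium with 2% horse serum, were transfected on day 1 of differentiation, and were harvested 40 h later. Nothing in the labels ties the triplicates to separate cultures. The p-values therefore rest on array-to-array spread that may be technical only. The cells were 1 established line, so no spread between animals or lines was measured.

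Core histones H2A, H2B, H3 and H4 build the nucleosome, and linker histone H1 binds the DNA between nucleosomes. The replication-dependent genes lie in clusters, have no introns, and make RNA that ends in a conserved stem-loop in place of a poly(A) tail. Their RNA builds up in S phase and is degraded when DNA synthesis stops, so in muscle cultures it is known to decline as myoblasts leave the cell cycle to fuse. In the RefSeq table for GRCm38.p6, 37 of the 43 member genes lay on chromosome 13 and 6 on chromosome 3.

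The targeted transcript was followed through the probe set listed under Mir675, a microRNA made from H19, and Supt6 (10569341). Its log2 values were 12.21, 12.22 and 12.27 after control siRNA but 10.38, 10.28 and 10.37 after H19 siRNA. The groups lay far apart, with a level after H19 siRNA at 26.9% of control (limma adjusted p = 0.0004). All 35556 rows entered that fit, and 11 of them, 0.0309%, passed an adjusted p of 0.05, 6 higher and 5 lower after H19 siRNA (9 of 13 higher after a second quantile normalisation). The 18 muscle markers included Myod1 and Myog, the master regulators of muscle differentiation, at mean log2 values of 11.6 and 11.2 after control siRNA. Row means of the 18 ran from 6.19 to 12.8. Of them 2, Myh8 (6.19) and Myf6 (6.34), lay below the median of all rows. Row means of the 7 leukocyte, 4 endothelial and 3 neuron marker rows reached 7.96, 5.90 and 7.50. Such values have no true zero on this scale, so absence could not be read from them.

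None of the 43 histone rows changed past the threshold. The smallest limma adjusted p among them was 0.389, for H1f1, and 5 rows had an unadjusted limma p under 0.05, each of them higher after H19 siRNA. Those 5 rows were 11.6% of the members, beside 4.97% of all rows with such a p and a higher value (8.63% in either direction). The members had 0 rows with such a p and a lower value, beside 3.66% of all rows. By mean signal 36 of the 43 rows lay above the median of all rows. In a refit to rows above that median, 5 of 36 members and 2324 of 17778 rows had an unadjusted limma p under 0.05. After each array was centred on its median 2 of 43 members had one, beside 2651 of 35556 rows. In bulk RNA, a different number of cells in S phase and a different amount of histone RNA per cell cannot be told apart.

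Differences were small and mostly positive. The median difference, H19 siRNA minus control siRNA, was 0.041 on the log2 scale over the 43 rows, a 1.03-fold difference, against 0.014 over all rows. It was positive in 38 of 43 rows, or 88.4%, beside 57.1% of all rows. In 13 of the 43 rows, or 30.2%, the lowest H19 siRNA array exceeded the highest control, beside 9.24% of all rows. The opposite order occurred in 0 members and in 6.28% of all rows, and these shares were not taken among rows of like signal. The member rows are not independent readings. Of them 17 list several genes with near-identical copies, and 2 of the H4 rows held equal values on every array. The median was 0.0184 after each array was centred on its median, 0.022 after a second quantile normalisation and 0.0252 without H19 siRNA replicate 1. The median of all rows moved too, to -0.0082, 0.0033 and 0.0134 in that order. The members thus stood above it by 0.0266, 0.0187 and 0.0118, against 0.0267 as deposited. Under each of the first 2 settings 35 member rows were positive, and the share of all rows was not counted there.

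**Figure D1:**
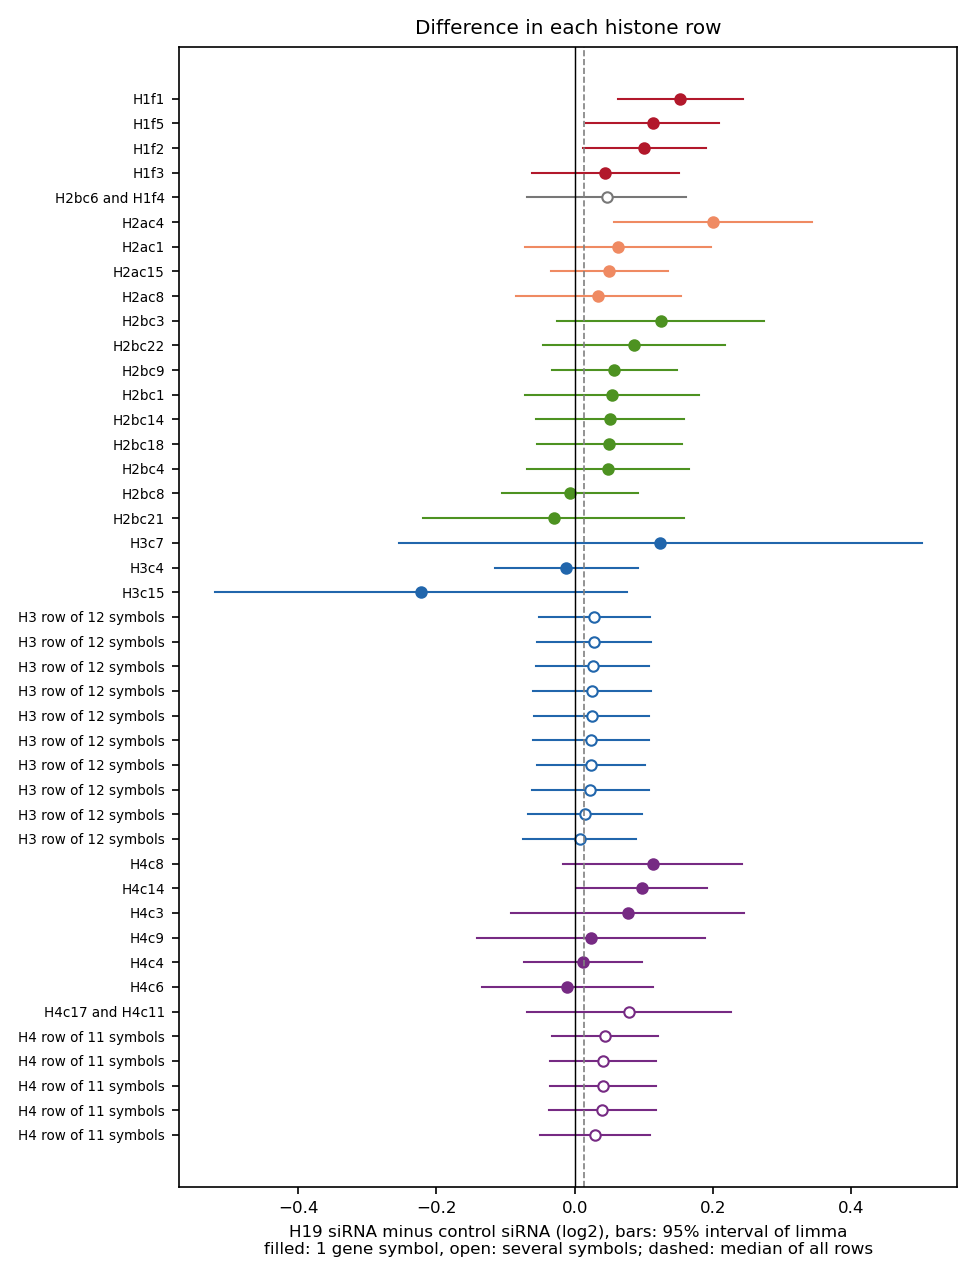
Difference between H19 siRNA and control siRNA (log2, horizontal axis) for each of the 43 histone rows, with the 95% interval of limma. Filled points are rows with 1 gene symbol, open points rows with several, and the dashed line is the median of all rows at 0.014. Intervals of 38 rows include 0, and those of H1f1, H1f2, H1f5, H2ac4 and H4c14 lie above it.

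The intervals rest on the spread between these arrays, which may be technical only, so they do not bound differences between cultures. They were taken row by row, with no adjustment for the number of rows. For 39 of the 43 rows the 95% interval lay wholly between -0.25 and 0.25 on the log2 scale. The other 4 were H2ac4, H2bc3, H3c7 and H3c15, whose bounds reached 0.34, 0.27, 0.50 and -0.52. H3c7 and H3c15 also had the widest spread between arrays of a group, with a larger group SD of 0.29 and 0.19.

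Linker histones stood highest as a class. The 4 H1 rows with 1 symbol had a median difference of 0.11, against 0.057 for H2A, 0.051 for H2B, -0.012 for H3 and 0.050 for H4, all over rows with 1 symbol, and no test was made between classes. With their rows of several symbols, H3 and H4 had medians of 0.024 and 0.041. All 4 H1 differences stayed positive after median centring (median 0.0845) and after a second quantile normalisation (0.103).

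H1f1 (probe set 10404069) encodes a somatic linker histone subtype. Its values were 10.40, 10.45 and 10.38 with control siRNA and 10.56, 10.55 and 10.59 with H19 siRNA. The groups did not overlap, and the difference was 0.15 (SE 0.037, 95% interval 0.062 to 0.24), with an unadjusted limma p of 0.00632 and an adjusted p of 0.389. Over the alternatives that adjusted p ran from 0.131 with an intensity trend and robust variance to 0.714 with the replicate block.

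H1f5 (10408081) and H1f2 (10404059), further somatic linker histones, also had every H19 siRNA array above every control array. H1f5 read 10.72, 10.81 and 10.74 with control siRNA and 10.86, 10.86 and 10.89 with H19 siRNA, a difference of 0.11 (SE 0.039, adjusted p = 0.530 in limma). H1f2 read 11.67, 11.70 and 11.67 with control siRNA and 11.76, 11.76 and 11.82 with H19 siRNA, a difference of 0.10 (SE 0.036, adjusted p = 0.535 in limma). In both rows the second control array was the highest of the controls and still lay below every H19 siRNA array. H1f3 (10404033) read between 6.05 and 6.16 on all arrays with overlapping groups, at a difference of 0.044 with an interval from -0.061 to 0.15. H1f4 had no row of its own, and the row it shares with H2bc6 (10408212) differed by 0.047.

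**Figure D2:**
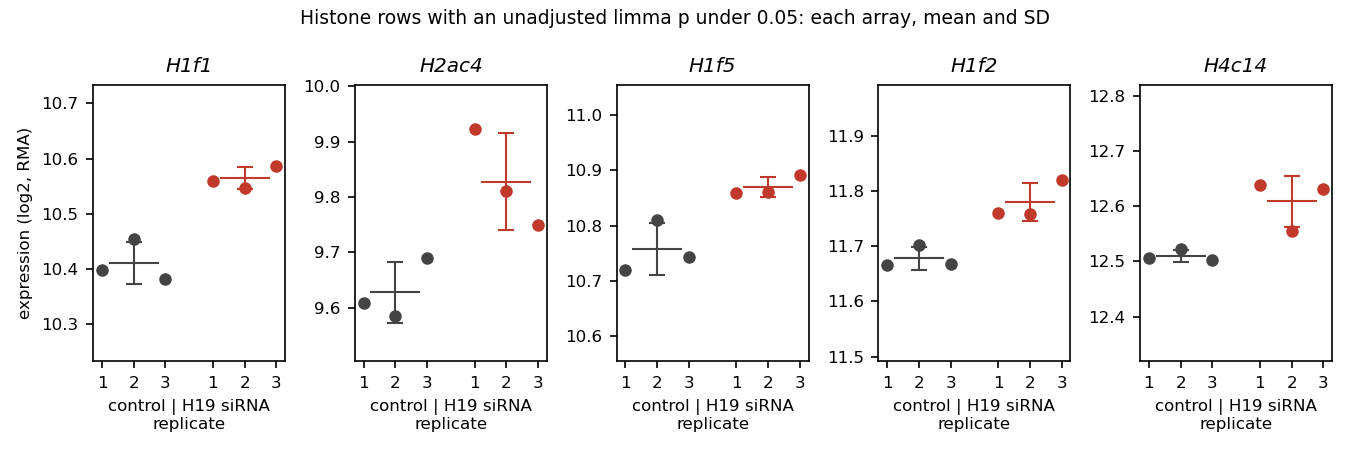
Expression (log2, RMA, vertical axes each spanning 0.5) on the 3 control and 3 H19 siRNA arrays for the 5 histone rows with an unadjusted limma p under 0.05. Points are arrays, and bars give the group mean and SD. In each row the H19 siRNA arrays lie above the controls, and none of the 5 has an adjusted p under 0.389.

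Promoters are shown for the 4 of these 5 genes that have one in the RefSeq table, with matches to short promoter elements marked. Each line gives the 250 bases before the annotated start, 5′ to 3′ on the gene's strand (GRCm38.p6). Capitals mark CCAAT, the site of NF-Y, TATAAA, the TATA box, and ATTTGCAT, the octamer bound by Oct-1, each on either strand (ATTGG and ATGCAAAT on the opposite one).
H1f1, chr13:23763418-23763667, plus strand: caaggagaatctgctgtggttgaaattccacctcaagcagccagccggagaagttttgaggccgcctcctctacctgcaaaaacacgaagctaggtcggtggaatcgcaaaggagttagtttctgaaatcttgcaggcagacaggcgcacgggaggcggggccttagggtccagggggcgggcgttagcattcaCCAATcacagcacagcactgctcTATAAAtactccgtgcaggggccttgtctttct
H1f5, chr13:21780626-21780875, minus strand: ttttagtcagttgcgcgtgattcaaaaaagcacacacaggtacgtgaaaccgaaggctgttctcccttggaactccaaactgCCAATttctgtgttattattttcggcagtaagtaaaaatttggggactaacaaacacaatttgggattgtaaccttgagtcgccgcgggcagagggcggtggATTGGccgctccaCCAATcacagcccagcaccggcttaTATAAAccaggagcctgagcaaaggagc
H1f2, chr13:23738557-23738806, plus strand: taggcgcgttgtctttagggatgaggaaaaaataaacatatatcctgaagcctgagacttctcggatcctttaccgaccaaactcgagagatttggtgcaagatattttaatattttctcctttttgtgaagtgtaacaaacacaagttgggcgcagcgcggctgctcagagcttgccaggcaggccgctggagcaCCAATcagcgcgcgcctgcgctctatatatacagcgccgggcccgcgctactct
H2ac4, chr13:23750838-23751087, plus strand: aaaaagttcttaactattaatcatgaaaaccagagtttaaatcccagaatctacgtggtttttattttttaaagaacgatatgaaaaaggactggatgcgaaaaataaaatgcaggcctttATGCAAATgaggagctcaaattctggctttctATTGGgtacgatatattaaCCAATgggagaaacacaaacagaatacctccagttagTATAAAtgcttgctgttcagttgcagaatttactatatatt

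All 4 windows held a CCAAT close to the start. It began 56 bases before the start in H1f1, 53 in H1f5 and 54 in H1f2, and 78 in H2ac4. The H1f1, H1f5 and H2ac4 windows also held TATAAA, at 33, 28 and 41 bases before the start, while the H1f2 window held no exact match to it. Of the 43 member genes 38 had a promoter window. Among them CCAAT occurred in 73.7%, TATAAA in 55.3% and the octamer in 23.7%, beside 37.5%, 14.3% and 1.81% of the 27025 genes with a window. The octamer was found in 3 of 4 H2A and 6 of 8 H2B genes and in 0 of 5 H1, 0 of 10 H3 and 0 of 11 H4 genes. CCAAT was found in all 5 H1, 4 H2A and 8 H2B genes, in 8 of 10 H3 genes and in 3 of 11 H4 genes. These are matches of letters in 1 window, set beside the expression values as a description.

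H2A had 4 rows with 1 symbol, among them the largest positive difference of the members. H2ac4 (10404063), a core H2A gene with an octamer in its promoter, read 9.61, 9.58 and 9.69 with control siRNA and 9.92, 9.81 and 9.75 with H19 siRNA. The groups did not overlap, although the highest control, 9.69, and the lowest H19 siRNA array, 9.75, were close. The difference was 0.20 (SE 0.058, 95% interval 0.0575 to 0.34), with an unadjusted limma p of 0.0141 and an adjusted p of 0.452. H2ac15 (10408077) read 12.63, 12.69 and 12.66 against 12.69, 12.72 and 12.71, so its groups were separate too, at a difference of 0.050 and an adjusted p of 0.737 in limma. H2ac8 (10408204) and H2ac1 (10404127), the latter known as a testis H2A, had overlapping groups and differences of 0.034 and 0.063.

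H2B genes pair with H2A genes in the clusters, often head to head. Among member-type genes in the RefSeq annotation, 9 pairs of an H2A and an H2B gene on opposite strands had starts 164 to 281 bases apart. Only 2 of these pairs had a row of their own for both genes. H2ac1 and H2bc1, both known as testis histones, differed by 0.063 and 0.0535, and H2ac8 and H2bc8 by 0.034 and -0.0066, all with overlapping groups.

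Of the 9 H2B rows 7 had a positive difference and 0 an unadjusted p under 0.05. H2bc3 (10404061) had the largest, at 0.12 (SE 0.061, adjusted p = 0.642 in limma). It read 11.16, 11.16 and 11.06 with control siRNA and 11.31, 11.14 and 11.30 with H19 siRNA. The second H19 siRNA array thus lay within the controls. H2bc9 (10408197) was the H2B row whose groups did not overlap, with 11.07, 11.10 and 11.06 against 11.11, 11.17 and 11.11, a difference of 0.057 with an adjusted p of 0.723 in limma. H2bc22, H2bc14, H2bc18 and H2bc4 differed by 0.086, 0.051, 0.050 and 0.049. H2bc21 (10494388), an H2B known from olfactory neurons, had the lowest difference at -0.030 (95% interval -0.22 to 0.16). Its highest value, 5.81, and its lowest, 5.57, were both on H19 siRNA arrays.

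H3 was read mostly by rows that cannot tell its genes apart. All 10 H3 rows with several symbols listed the same 12 genes, lay above the 99th percentile of all rows and had means from 13.7 to 14.0, near the table's highest value of 14.6. Their differences ran from 0.0074 to 0.029 with a median of 0.024, and in each the second control array was the highest of its group. All 10 were positive as deposited, 8 after median centring and 7 after a second quantile normalisation. The part that signal near the upper end of the scale plays in these small differences was not tested.

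The 3 H3 rows with 1 symbol lay below the median of all rows and went both ways. H3c15 (10500327), on chromosome 3, had the most negative difference of all members. It read 5.94, 6.09 and 6.27 with control siRNA and 5.77, 5.76 and 6.09 with H19 siRNA, a difference of -0.22 (SE 0.12, 95% interval -0.52 to 0.075, limma adjusted p = 0.669). The third array was the highest in both groups and the groups overlapped. H3c7 (10404030), the one member below the 30th percentile of all rows, read 4.74, 5.00 and 4.82 against 4.99, 4.68 and 5.26. Its difference of 0.12 had an interval from -0.25 to 0.50 and was -0.0157 without H19 siRNA replicate 3. H3c4 differed by -0.012.

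H4, whose many gene copies encode the same protein, had 11 of 12 positive differences. H4c14 (10500333), on chromosome 3, read 12.51, 12.52 and 12.50 with control siRNA and 12.64, 12.56 and 12.63 with H19 siRNA. The groups did not overlap, and the difference was 0.098 (SE 0.038, 95% interval 0.0041 to 0.19), with an unadjusted limma p of 0.0433 and an adjusted p of 0.567. H4c8 (10404024) read 7.07, 6.98 and 6.99 against 7.20, 7.05 and 7.13, a difference of 0.11 (limma adjusted p = 0.629). There 1 H19 siRNA array lay below the highest control. H4c3, H4c9 and H4c4 differed by 0.077, 0.024 and 0.012.

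H4c6 (10408200) showed how little separates sign from sign in this class. It read 11.22, 11.23 and 11.22 with control siRNA and 11.19, 11.14 and 11.30 with H19 siRNA, a difference of -0.011. The 5 H4 rows of 11 symbols had means from 13.6 to 13.7 and differences from 0.030 to 0.044. In all 5 the groups were separate with H19 siRNA higher, and they made up 5 of the 13 member rows with that order, though 2 of them held equal values. They stayed positive after median centring (median 0.0184) and after a second quantile normalisation (0.0202). The row of H4c17 and H4c11 differed by 0.078 with overlapping groups.

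**Figure D3:**
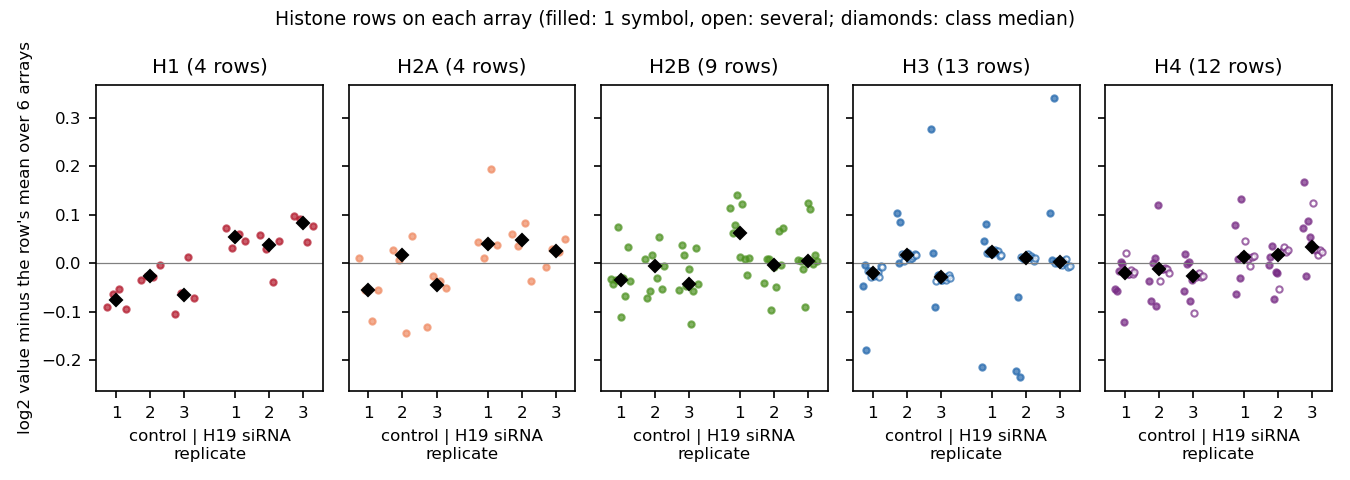
Log2 value of each histone row on each array minus that row's mean over the 6 arrays, by histone class, with replicates on the horizontal axis. Filled points are rows with 1 symbol, open points rows with several, and diamonds the class median on each array. Groups are separate in 3 of the 4 H1 rows and overlap in H1f3, while the 3 H3 rows with 1 symbol scatter the most.

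The members did not move evenly over the arrays. Taken as the median deviation from each row's own mean, the 43 rows stood at -0.026, 0.0001 and -0.031 with control siRNA and at 0.023, 0.011 and 0.022 with H19 siRNA. All H19 siRNA medians lay above all control medians, with the second array of each group nearest to the other group. The 26 rows with 1 symbol gave -0.049, -0.0049 and -0.040 against 0.044, -0.0041 and 0.043, so the second control and the second H19 siRNA array were almost level. The median of all rows stood between -0.009 and 0.015 over the 6 arrays. Its highest value was on the third H19 siRNA array and its lowest on the second.

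The rows just outside the members gave a similar picture at high signal. The 9 rows differed by 0.021 to 0.058 with a median of 0.033, and 2 of them had separate groups. All 9 were positive as deposited and after a second quantile normalisation, and 7 after median centring. Limma adjusted p-values ran from 0.689 to 0.896, and 2 of the H2B rows held equal values on every array.

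Factors that make histone RNA did not change past the threshold. Of the 29 rows (25 genes) for histone gene transcription and processing 0 passed, 16 had a positive difference, and the median was 0.027, or 0.0048 after median centring. Casp8ap2 (10503711), which organises the histone locus body where these genes are read, read 8.56, 8.61 and 8.60 with control siRNA and 8.42, 8.37 and 8.53 with H19 siRNA. Its groups did not overlap, and the difference of -0.15 (SE 0.051), opposite in sign to most histone rows, had an unadjusted limma p of 0.0250 and an adjusted p of 0.511. Slbp, which binds the histone stem-loop, had 2 rows at 0.030 and 0.017, with intervals from -0.19 to 0.25 and from -0.17 to 0.21. Npat, the histone gene coactivator, differed by -0.018 and Lsm11, a subunit of the U7 processing particle, by 0.027. E2f1 and Cdk2, which drive entry into S phase, differed by 0.10 and 0.092, both with separate groups and with limma adjusted p-values of 0.600 and 0.606. Ccne1 and Ccne2, the cyclin E partners of Cdk2, named after their values were seen, had negative differences of -0.074 with separate groups and -0.20 with overlapping groups (limma adjusted p = 0.642 and 0.650).

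Histone genes listed as variants, outside this group, had mostly small negative differences. Of 12 rows (11 genes) 9 were negative and 0 passed, with a median of -0.019. The positive rows numbered 3, beside 57.1% of all rows. Intervals of all 12 included 0. Groups were separate in 2 rows with H19 siRNA lower and in 1 with it higher, H2bu2, at 0.040. When in the cell cycle each listed gene is read was not tested. H2az1, a replacement H2A, had 2 rows at -0.029 and -0.040, and H1f10, a linker histone outside the clusters, stood at -0.067. Macroh2a2, an H2A form with a large extra domain, stood at -0.067, and H1f8, an oocyte linker histone, at 0.17 with an adjusted p of 0.642 in limma. H3f3a, a gene of the replacement histone H3.3, differed by 0.034 in its own row, which had a low mean of 5.03. The 4 rows it shares with Gm12657 had means from 12.17 to 12.19 and differences from -0.043 to -0.0059. The 2 rows listed under Gm6485 and H3f3b differed by 0.029 and 0.017. The 9 negative differences were also 9 after median centring and after a second quantile normalisation.

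Histone chaperones and S phase genes had no row past the threshold. Of 21 chaperone rows (20 genes) 11 were positive with a median of 0.0001, against 5 positive and a median of -0.0223 after median centring. Hira, which deposits replacement H3, read 9.22, 9.22 and 9.30 against 9.11, 9.06 and 9.20, a difference of -0.12 with an adjusted p of 0.589 in limma. Supt6, a histone chaperone of transcription, and Daxx, a chaperone of replacement H3, differed by -0.063 and 0.067. Of 42 S phase rows (39 genes) 0 passed, and the median was 0.0076, or -0.0148 after median centring. An unadjusted limma p under 0.05 came with a higher value in 2 and a lower value in 1. Over all rows these shares were 4.97% and 3.66%.

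Among S phase genes the values went both ways. Cdc45, a subunit of the replicative helicase, differed by 0.11 (SE 0.034) and Mcm3, another subunit of it, by -0.11 (SE 0.034), each with separate groups and an adjusted p of 0.489 in limma. Cdc6, which licenses origins, read 6.59, 6.91 and 6.69 against 7.09, 6.98 and 6.87, a difference of 0.25 with overlapping groups and an adjusted p of 0.570 in limma. Pcna, the replication clamp, had 2 rows at 0.0078 and 0.0037, with intervals from -0.076 to 0.092 and from -0.076 to 0.083. Ccna2, the S phase cyclin, differed by 0.0099 with an interval from -0.075 to 0.095.

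**Figure D4:**
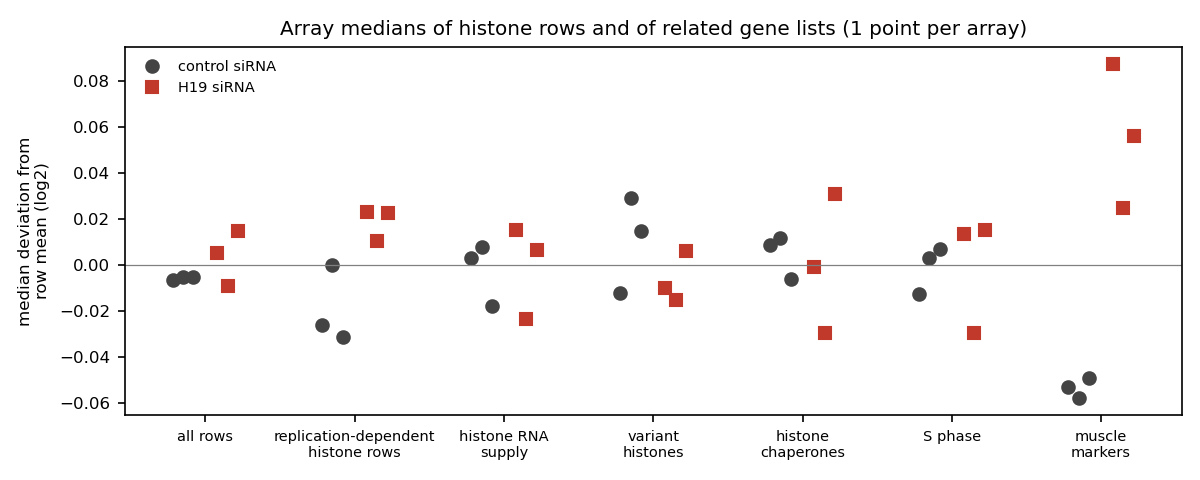
Median deviation from the row mean (log2, vertical axis) on each control and H19 siRNA array, 1 point per array, for all rows, the histone rows and related lists. Groups are separate for the histone rows (control up to 0.0001, H19 siRNA from 0.011) and for the muscle markers (up to -0.049 and from 0.025), and overlap for the other lists.

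Muscle markers stood higher on the same H19 siRNA arrays. Of 18 marker rows 14 were positive with a median of 0.10, and 0 passed over all rows (smallest limma adjusted p = 0.129, for Tnnt2). An unadjusted limma p under 0.05 came with a higher value in 10 and a lower value in 1, beside 4.97% and 3.66% of all rows. Tnnt2, Cdh15 and Myog, the 3 rows with the smallest p, differed by 0.26, 0.28 and 0.22, each with separate groups. Array medians of the 18 rows were -0.053, -0.058 and -0.049 with control siRNA and 0.087, 0.025 and 0.056 with H19 siRNA. The second H19 siRNA array was the lowest of its group, as it was in the median over the 43 histone rows. That order was not particular to these sets. The same array was lowest of its group for all rows (-0.009) and in the supply, variant, chaperone and S phase lists. For histone rows of several symbols the third H19 siRNA array was lowest (0.0046, against 0.0125 on the second). Row by row, the second and the third were each lowest in 17 of the 43 histone rows. By class median the second was lowest for H1 and H2B, the third for H3 and the first for H4. For H2A the second was highest, at 0.0475. Leukocyte, endothelial and neuron markers had medians of -0.0054, -0.017 and -0.0014. What the muscle genes contribute to the histone values was not tested.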

How the data were processed

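RNA of 3 control siRNA and 3 H19 siRNA arrays was analysed. Per the submitters' processing notes, the authors made the deposited log2 values per probe set with RMA in Affymetrix Expression Console, and the version is not given in the sources used here. Quantile normalisation in RMA gives all arrays one distribution of probe signals, so a shift shared by most genes cannot be seen, and its background step shrinks differences of dim probe sets. Array medians lay between 6.73 and 6.78. Of 35556 rows, GEO's platform annotation gave 21789 with 1 symbol, 1621 with several and 12146 with none. Of the single-symbol rows 21698 matched the RefSeq table, and 0 symbols were updated.

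The model was fitted by limma 3.58.1 (lmFit, then eBayes) under R 4.3.3 on all rows, with no covariate or filter and Benjamini-Hochberg adjustment over 35556 rows. SE is limma's moderated standard error of a difference between means of 3 arrays. The fit was tested on simulated data. With 3 arrays a group, an exact permutation test has a smallest two-sided p of 0.1, which the Mir675 and Supt6 row reached. The members, lists and alternatives were chosen with earlier results of these data known. Named in full were, per class, the rows with the smallest p and the largest positive and negative difference, rows of several symbols by their difference, the 3 rows of widest spread, and of each other list the 3 rows with the smallest p and genes set by name. The rule allowed every member row to be named. Motifs were searched on both strands of RefSeq windows (GRCm38.p6). H1f0 was not analysed here.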

Additional observations from a re-analysis of the deposited data

How the results depend on the processing

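The count of 0 called histone rows held under all 15 refits and with rows of 1 symbol only, and the 4 gene lists also kept 0. The smallest adjusted p of a histone row ran from 0.131 with an intensity trend and robust variance to 0.688 with the replicate block. Histone rows with an unadjusted limma p under 0.05 ran from 2 to 10. After median centring they were 2 of 43, beside 2651 of 35556 rows. With the trend and robust variance they were 10 of 43, beside 3395 of 35556 rows. The median histone difference of 0.0408 was 0.0184 after centring and 0.022 after a second quantile normalisation. Less the median of all rows, it was 0.0267 as deposited, 0.0266 after centring and 0.0187 after a second quantile normalisation. With 1 array left out the median histone difference lay between 0.0252 and 0.0448, and the lowest was without H19 siRNA replicate 1. The Mir675 and Supt6 row ran from -1.9102 to -1.8614 with 1 array left out, and its adjusted p was 0.0578 at an unchanged -1.8925 with the replicate block. The correlations of same-numbered arrays were 0.0012, -0.067 and -0.114, and those of differently numbered arrays ran from -0.027 to 0.095. No pairing by number was seen, but deviations from means of 3 arrays cannot exclude one. The block left 0 of all rows called, against 11. All-row counts were 19 with array weights and 104 with an intensity trend and robust variance. Filters at the 30th percentile and the median gave 33 and 74. Listed rows and 1 row per gene each gave 43, and fits with 1 array left out gave 3 to 4. H2bc21 turned to 0.0038 with array weights, and to 0.0104 and 0.0070 without H19 siRNA replicates 2 and 3 (range -0.1083 to 0.0104). H4c6 turned to 0.0011 and 0.0233 without H19 siRNA replicates 1 and 2 (range -0.0576 to 0.0233), and H3c7 to -0.0157 without replicate 3 (range -0.0157 to 0.2722). The causes were not tested. Signal over background was not measured, and 1 histone row lay below the 30th percentile.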
